A study of Saccharomyces cerevisiae with 8 samples.

Results

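Gene expression in a budding yeast (Saccharomyces cerevisiae) strain deleted for DOT1 was compared with that of wild type over every gene with a symbol on an Affymetrix yeast array, 5449 of 5449 genes measured. Genes were taken from the array's annotation with control and reporter probe sets left out, and none was chosen by its value. The series held 8 arrays, 2 each of strains deleted for DOT1 (dot1), SWI4 (swi4) or ARD1 (ard1) and of wild type (wt), each array from a culture that the labels call a biological replicate. All cultures were grown in rich liquid medium (YPD) at 30 C and collected in mid-log phase at an optical density of 0.7, with no further treatment. Swi4 binds DNA within SBF, which activates genes of late G1, and Ard1 is the catalytic subunit of the N-terminal acetyltransferase NatA. The sources used here do not give the strain background, the mating type or the number of clones behind each deletion.

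Dot1 is the only enzyme known to methylate lysine 79 of histone H3 in yeast, a residue on the surface of the nucleosome core, and it has no demethylase known in this organism. The mark covers most of the transcribed genome and is sparse where the Sir proteins bind, at the silent mating cassettes HML and HMR and near telomeres, and ubiquitination of histone H2B promotes its higher methylation states. DOT1 was found as a gene whose overexpression disrupts telomeric silencing, and the series title places the arrays in the question of silencing in natural heterochromatin and at HML and HMR.

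The 2 dot1 arrays had median intensities of 630 and 644, and the wt arrays 625 and 713, so wt replicate 2 was brighter than the other 7 arrays, whose medians lay between 623 and 644. Over genes, the difference between replicates had an SD of 0.30 on the log2 scale in dot1, against 0.32 in wt, and 0.14 and 0.17 in swi4 and ard1. The replicate number moved with this spread: the dot1 minus wt difference within replicate 1 and that within replicate 2 differed over genes with an SD of 0.22, and the differences across replicate numbers with an SD of 0.58. Changes are therefore given over all arrays and, where calls differ, also with the replicate number as a block and without wt replicate 2. Each change is a log2 difference, dot1 minus wt, with its standard error from limma (n = 2 arrays per group). A gene is called, and said to have risen or fallen, when its Benjamini-Hochberg adjusted p over all 5449 genes was under 0.05.

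The deleted gene itself was low. DOT1 (YDR440W, chromosome IV) had log2 intensities of 4.49 and 4.29 in dot1, against 7.49 and 7.92 in wt. Both dot1 arrays lay below both wt arrays, and the change was −3.31 ± 0.15 (limma adjusted p = 0.00106), with the dot1 mean below those of all but 50 genes. The genes on either side of it were not called. LRS4, a monopolin subunit that also acts in silencing at the ribosomal DNA, had a change of −0.14 ± 0.14 (adjusted p = 0.616). APT2, an adenine phosphoribosyltransferase-like gene, had a change of −0.39 ± 0.10 (adjusted p = 0.0862), and fell with the replicate block (adjusted p = 0.0448).

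Across the genome, 61 genes rose (1.12%) and 73 fell (1.34%) in dot1, 134 of 5449 (2.46%). Against the mean of swi4 and ard1, 9 of the 61 rises were also called higher and 4 of the 73 falls lower. Over all genes, 2% were called higher in that comparison and 0.954% lower. The other rises and falls were not told apart from these deletions by that test. At least 2-fold changes were called in 14 genes that rose (0.257%) and 14 that fell (0.257%). The median change of the risen genes was 0.82, that of the fallen genes −0.76, and that of all 5449 genes −0.07. By wt signal, the dimmest 25% of genes held 11 rises and 8 falls, and the brightest 25% 9 rises and 32 falls. Of the 73 falls, 15 (20.5%) carried only a systematic name, against 9.16% of all genes.

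With the replicate number as a block, 267 genes rose (4.9%) and 526 fell (9.65%), 793 in all (14.6%), and the 134 genes called without the block were all among them. Without wt replicate 1 there were 178 rises and 629 falls, which held all 134. Without wt replicate 2, 7 genes rose (0.128%) and 4 fell (0.0734%), 11 in all (0.202%). Leaving out dot1 replicate 1 gave 6 rises and 6 falls, leaving out dot1 replicate 2 gave 2 of each, and leaving out any 1 of the swi4 or ard1 arrays gave 11 or 12 calls. In a fit of the dot1 and wt arrays alone, 0 genes were called by limma, with 618 at an unadjusted p under 0.05. The sign of the change stayed the same for all 134 genes in each of these fits, but it had no room to change. The dot1 and wt arrays overlapped in none of these genes, so leaving out 1 array could not turn a sign. The fit with the block and that of the dot1 and wt arrays alone leave the estimate itself as it was. HSP26, OPT2, DOT1 and YMR230W-A were called whichever of the 4 dot1 and wt arrays was left out. The median change of all genes, −0.07, was 0.01 without wt replicate 2 and −0.14 without wt replicate 1. Where a list median given below turned direction or moved by over 1.5 times in these 2 fits, the moved values stand with it. Lists described below without a median moved in places too. That of SBF and MBF targets was −0.04, and 0.01 and −0.12 in these 2 fits. In the same order, the seripauperins had −0.13, −0.29 and −0.01, core histones and H1 −0.12, −0.07 and −0.14, and Gcn4 and nitrogen regulation 0.22, 0.07 and 0.23. After each array was centred on its median, 119 genes rose and 114 fell. The part of wt replicate 2 and of the replicate number in these calls was not tested beyond these fits.

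**Figure D1:**
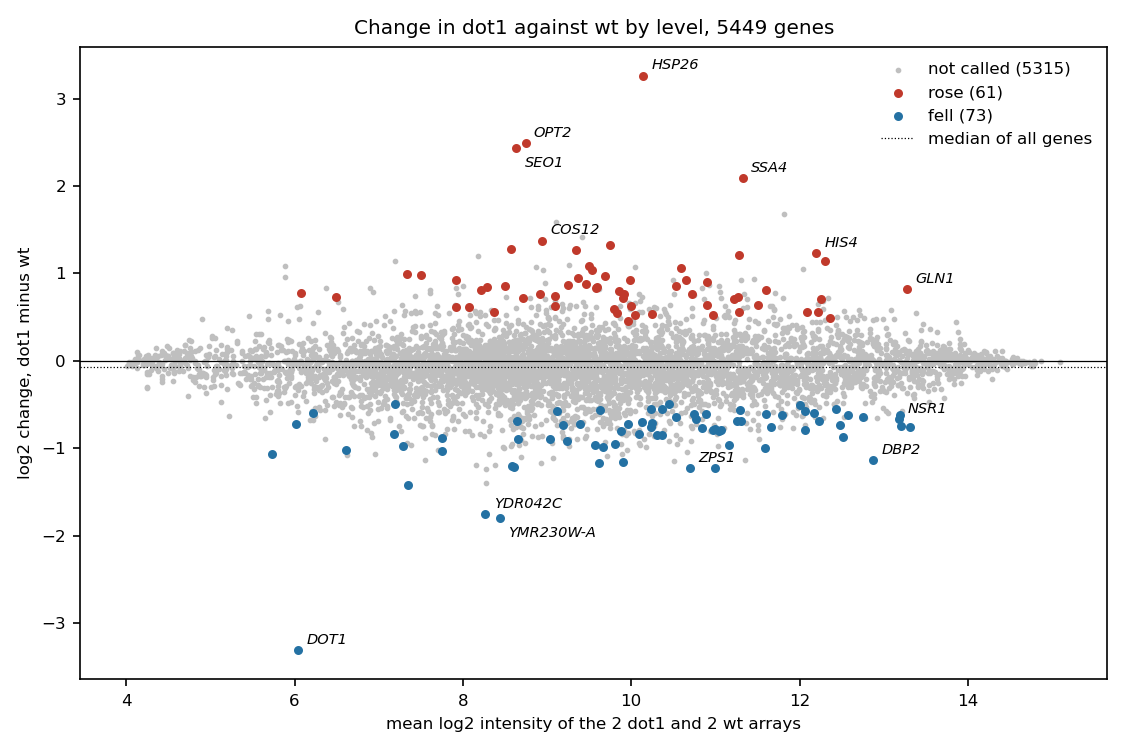
The log2 change of each of the 5449 genes in dot1 against wt (vertical axis) is plotted against its mean log2 intensity over the dot1 and wt arrays (horizontal axis), with the 61 risen and 73 fallen genes marked. DOT1 and HSP26 lie farthest from 0, and most genes lie near the median of −0.07.

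HSP26, OPT2, SEO1 and SSA4 had the largest rises, given below as log2 changes. HSP26, whose small heat shock protein holds unfolding proteins, was first, with log2 intensities of 11.87 and 11.67 in dot1, against 8.75 and 8.26 in wt. OPT2, a transporter of the oligopeptide family, had 10.18 and 9.80 in dot1, against 7.71 and 7.29 in wt. SEO1, a putative permease encoded near the left end of chromosome I, had 9.96 and 9.74 in dot1, against 7.86 and 6.97 in wt. In these 3 genes both dot1 arrays were far above both wt arrays, with changes of 3.26 ± 0.20 for HSP26 (adjusted p = 0.00208), 2.49 ± 0.18 for OPT2 (adjusted p = 0.0041) and 2.43 ± 0.31 for SEO1 (adjusted p = 0.0194). The heat-inducible Hsp70 SSA4 followed at 2.09 ± 0.15 with log2 intensities of 12.29 and 12.45 in dot1, against 10.46 and 10.10 in wt. The largest 20 rises also took in COS12, of the subtelomeric COS family (1.38), and the reticulon RTN2 (1.32). GPG1, a proposed partner of the glucose-sensing G protein, rose by 1.28, and MHT1, which makes methionine from S-methylmethionine, by 1.27. Rises of about 2-fold were found for HIS4 of histidine synthesis (1.23), the ATP synthase inhibitor INH1 (1.21), cytosolic malate dehydrogenase MDH2 (1.15) and TIS11, an mRNA-destabilising protein of iron deficiency (1.08). PCL5, the cyclin that directs Pho85 to the transcription factor Gcn4, rose by 1.06, and ARO10, a decarboxylase of amino acid breakdown, by 1.04. The rest of the 20 were FMP23 (0.99), the mitochondrial fatty acid synthase CEM1 (0.98), adenylylsulfate kinase MET14 (0.98), the methyltransferase TMT1 (0.95), guanine deaminase GUD1 (0.93) and the quinone reductase-like ZTA1 (0.92), which lies next to FMP23 on chromosome II. Of the 20 largest rises, 6 passed without dot1 replicate 1, 2 without dot1 replicate 2, 7 without wt replicate 2 and 6 to 7 without any 1 of the swi4 and ard1 arrays, while 20 of 20 passed without wt replicate 1. The 7 called without wt replicate 2 were HSP26, OPT2, SSA4, HIS4, PCL5, ARO10 and MET14.

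**Figure D2:**
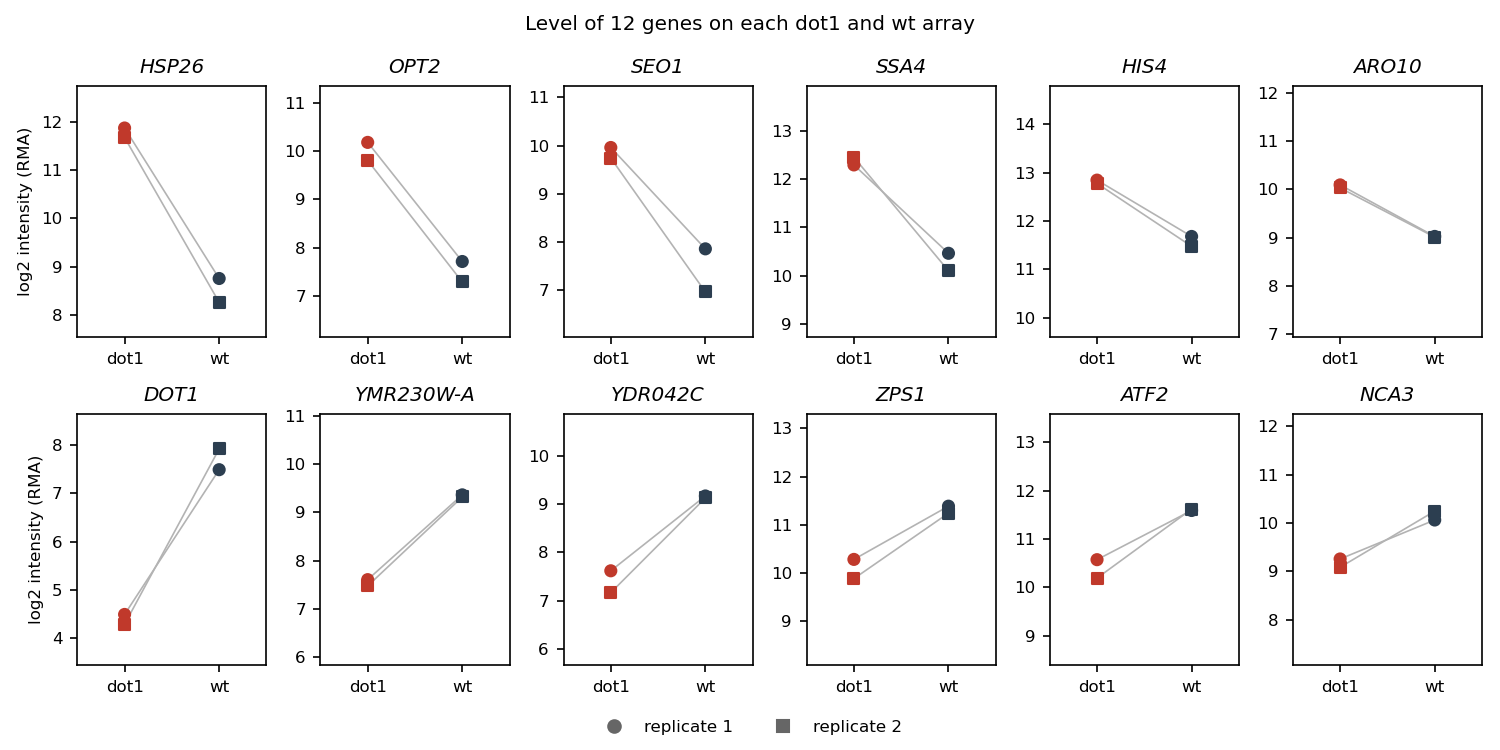
Log2 intensities of 12 called genes are drawn for each dot1 and wt array, with circles for replicate 1, squares for replicate 2 and lines joining arrays of the same number. The groups do not overlap in any panel. HSP26 lies at 11.87 and 11.67 in dot1, against 8.75 and 8.26 in wt, and DOT1 at 4.49 and 4.29 in dot1, against 7.49 and 7.92 in wt.

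After DOT1, the largest falls were in open reading frames with no assigned role. YMR230W-A had log2 intensities of 7.61 and 7.48 in dot1, against 9.36 and 9.32 in wt, a change of −1.80 ± 0.10 (adjusted p = 0.00202). YDR042C had 7.62 and 7.16 in dot1, against 9.16 and 9.12 in wt (−1.75 ± 0.22, adjusted p = 0.0193), and YAL037C-A had 6.63 and 6.65 in dot1, against 8.21 and 7.92 in wt (−1.42 ± 0.15, adjusted p = 0.0158). The dot1 and wt arrays did not overlap in any of the 3. ZPS1, a surface protein made when zinc is scarce or the medium alkaline, fell by 1.23 on the log2 scale, and ATF2, an acetyltransferase for alcohols and steroids, by 1.22. The RNA helicases DHR2 (−1.21) and DBP2 (−1.14), which act on ribosomal and messenger RNA, fell with EFM6, a methyltransferase of a translation elongation factor (−1.16). The sporulation genes SPO19 (−1.07) and SPS18 (−1.03) fell. NCA3 of the SUN family (−0.98), the multidrug exporter YOR1 (−0.96) and the steryl ester hydrolase YEH1 (−0.96) closed the list together with YOL014W (−1.20), YAR068W (−1.17), RRT5 (−1.02), YBR238C (−0.998), YAR066W (−0.98) and YBL028C (−0.95). Of the 20 largest falls, 6 passed without dot1 replicate 1, 2 without dot1 replicate 2, 4 without wt replicate 2 and 4 to 6 without any 1 of the swi4 and ard1 arrays, while 20 of 20 passed without wt replicate 1. The 4 called without wt replicate 2 were DOT1, YMR230W-A, YAL037C-A and YOL014W.

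Chaperone genes of the heat shock response held several of the rises, read against 1.12% of all genes that rose. These lists and those below were chosen with earlier results of these data known. Their counts and medians are descriptions and no evidence of direction. Of 6 small heat shock and disaggregase genes 2 rose (HSP26 and the mitochondrial disaggregase HSP78, 0.92) and all 6 had positive changes, with a median of 0.72 against −0.07 over all genes. Among 17 genes of Hsp70 and its partners 2 rose, SSA4 and the exchange factor SSE2 (0.90), with a median of 0.05, which was 0.17 without wt replicate 2 and −0.07 without wt replicate 1. Among 10 of Hsp90 and its partners the co-chaperones CPR6 (0.56) and AHA1 (0.55) rose, while 6 of the 10 changes were negative. The median of this list was −0.02, which was 0.28 without wt replicate 2 and −0.13 without wt replicate 1. Other chaperones were not called, such as the Hsp90 gene HSP82 at 0.25 and SSC1 of the mitochondrion at −0.10, both chosen after their values were seen. HSP12, a membrane-binding stress protein, had one of the largest changes that were not called, 1.68 ± 0.38 (adjusted p = 0.0666), at 13.02 and 12.30 in dot1, against 11.44 and 10.53 in wt. Of 23 general stress genes RTN2 alone rose, 21 had positive changes and the median was 0.45. Its largest uncalled values were those of the aldehyde dehydrogenase ALD3 (0.84), RTC3 (0.77) and the carboxypeptidase inhibitor TFS1 (0.72). Of 17 genes of trehalose and glycogen metabolism 0 rose, 7 had an unadjusted p under 0.05 and the median was 0.32 (0.19 without wt replicate 2), with glycogenin GLG1 at 0.60, the phosphatase subunit GAC1 at 0.61 and the branching enzyme GLC3 at 0.58. With the replicate block, under which 4.9% of all genes rose, 11 of 23 general stress genes, 6 of 17 of trehalose and glycogen metabolism, 4 of 17 of Hsp70 and its partners and 4 of 6 small heat shock or disaggregase genes rose. Of the 7 called genes of these 5 lists, 2 passed without dot1 replicate 1, 1 without dot1 replicate 2, 2 without wt replicate 2 and 2 to 3 without any 1 of the swi4 and ard1 arrays, while 7 of 7 passed without wt replicate 1. The uncalled HSP12, ALD3, RTC3, TFS1, GLG1, GAC1 and GLC3 passed with the replicate block (limma adjusted p = 0.0148 to 0.041).

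The 6 called chaperones were compared in the other deletions too, in comparisons that share the wt arrays with that of dot1. HSP26 had log2 intensities of 11.87 and 11.67 in dot1, 12.52 and 12.11 in swi4, 11.88 and 11.89 in ard1 and 8.75 and 8.26 in wt. It was 3.81 ± 0.20 above wt in swi4 (limma adjusted p = 0.000432) and 3.38 ± 0.20 in ard1 (adjusted p = 0.000997), and dot1 differed from the mean of swi4 and ard1 by −0.33 ± 0.17 (adjusted p = 0.356). Wild type was the low group of the 4. SSA4 was 1.997 above wt in swi4 and 1.78 in ard1, HSP78 0.75 and 0.79, and SSE2 1.23 and 0.58, in the same order. CPR6 was 0.61 above wt in swi4 and 0.66 in ard1, and AHA1 0.59 and 0.69. All 12 of these differences passed limma's threshold. Between dot1 and the mean of swi4 and ard1, none of the 6 passed it, with a difference of 0.20 ± 0.13 for SSA4 (adjusted p = 0.462). The permease SEO1 had group means of 9.85 in dot1, 9.91 in swi4, 9.31 in ard1 and 7.42 in wt, and dot1 differed from the mean of swi4 and ard1 by 0.24 ± 0.27 (adjusted p = 0.687).

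Genes that take up sulfate and reduce it to sulfide for methionine and cysteine were higher in dot1. Of 10 sulfate assimilation genes 3 rose, against 1.12% of all genes, and all 10 had positive changes with a median of 0.69 against −0.07 over all genes. MET14 had log2 intensities of 10.12 and 10.23 in dot1, against 9.11 and 9.29 in wt and rose by 0.98 ± 0.10 (adjusted p = 0.0143). MET5, a sulfite reductase subunit, rose by 0.70, and MET1, which makes the siroheme of that enzyme, by 0.84. The uncalled members with the largest changes were the sulfate permeases SUL1 (1.09) and SUL2 (0.58), ATP sulfurylase MET3 (1.01) and sulfite reductase MET10 (0.68). Of 23 genes of methionine, S-adenosylmethionine and cysteine metabolism 1 rose, MHT1, and the median was 0.10, which was 0.03 without wt replicate 2 and −0.09 without wt replicate 1. The uncalled cystathionine lyase STR3 stood at 1.07 and the S-methylmethionine permease MMP1 at 0.78. With the block, 8 of 10 sulfate assimilation genes and 5 of 23 methionine genes rose, against 4.9% of all genes. Of the 4 called genes of both lists, 0 passed without dot1 replicate 1, 0 without dot1 replicate 2, 1 without wt replicate 2 and 0 without any 1 of the swi4 and ard1 arrays, while 4 of 4 passed without wt replicate 1. Named without a call, SUL1, SUL2, MET3, MET10 and MMP1 passed once the replicate number was a block (limma adjusted p = 0.00585 to 0.024). Against the mean of swi4 and ard1, the sulfate assimilation list had a median of 0.00.

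Of 94 genes in 7 lists of amino acid metabolism 7 rose, against 1.12% of all genes. HIS4, a trifunctional enzyme of histidine synthesis, had log2 intensities of 12.85 and 12.78 in dot1, against 11.68 and 11.48 in wt and rose by 1.23 ± 0.10 (adjusted p = 0.00585). HIS5, the aminotransferase of the pathway, rose by 0.53, and all 7 histidine genes had positive changes, with a median of 0.34 that was 0.51 without wt replicate 2 and 0.22 without wt replicate 1. In arginine synthesis 2 of 13 genes rose, argininosuccinate synthetase ARG1 (0.88) and argininosuccinate lyase ARG4 (0.81), while the arginine repressor subunit ARG80 had an uncalled value of −0.39. In aromatic amino acid metabolism 2 of 13 rose, the transaminase ARO9 (0.86) and ARO10, both of the breakdown of aromatic amino acids to fusel alcohols. Chorismate mutase ARO7, on the synthetic side, was at −0.63, and the list median was 0.00 (0.01 without wt replicate 2 and −0.07 without wt replicate 1). Glutamine synthetase GLN1 rose by 0.82, as 1 of 22 genes of Gcn4 and nitrogen regulation, where the ammonium permease MEP1 (0.68) and the general permease GAP1 (0.64) were not called. No member was called among 10 lysine, 12 branched-chain and 17 serine, threonine and glycine genes, with medians of 0.10, −0.09 and 0.11, and by limma 4, 4 and 5 had an unadjusted p under 0.05. With the block, 3 of the 7 histidine genes rose, 4 of 13 in arginine synthesis, 2 of 13 in aromatic amino acid metabolism, 4 of 22 of Gcn4 and nitrogen regulation, 1 of 10 lysine genes, 1 of 12 branched-chain genes and 3 of 17 serine, threonine and glycine genes, against 4.9% of all genes. Falls with the block numbered 1 each in the aromatic, Gcn4 and branched-chain lists. Of the 7 called genes of these 7 lists, 2 passed without dot1 replicate 1, 0 without dot1 replicate 2, 2 without wt replicate 2 and 2 without any 1 of the swi4 and ard1 arrays, while 7 of 7 passed without wt replicate 1. Those called without wt replicate 2 were HIS4 and ARO10. ARO10 also lay above the mean of swi4 and ard1 by 0.41 ± 0.07 (adjusted p = 0.0414), whereas ARG1 lay below it, by −1.01 ± 0.12 (adjusted p = 0.0168) and HIS4 differed by −0.11 ± 0.09 (adjusted p = 0.529). With the replicate block, ARO7, MEP1 and GAP1 passed too (limma adjusted p = 0.0177 to 0.0411).

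Nuclear genes of mitochondrial respiration were higher in dot1. Of 27 respiratory chain genes 4 rose, against 1.12% of all genes, 26 had positive changes and the median was 0.46 against −0.07 over all genes. QCR6, a subunit of the cytochrome bc1 complex, had log2 intensities of 9.90 and 10.09 in dot1, against 9.002 and 9.32 in wt and rose by 0.84 ± 0.15 (adjusted p = 0.042). The bc1 subunits QCR2 (0.63) and QCR7 (0.56) rose, as did the internal NADH dehydrogenase NDI1 (0.64). The external dehydrogenase NDE2 (0.96), cytochrome oxidase subunit COX4 (0.69), the Rieske protein RIP1 (0.65) and cytochrome c CYC1 (0.63) had the largest changes that were not called. All 16 ATP synthase genes had positive changes, median 0.33. Of these INH1, at 12.01 and 11.76 in dot1, against 10.85 and 10.50 in wt, and the delta subunit ATP16 (0.49) rose. Of 20 genes of the tricarboxylic acid cycle and retrograde response MDH2 rose and the median was 0.24, with mitochondrial malate dehydrogenase MDH1 at 0.59 and citrate synthase CIT1 at 0.47. CAT8, the activator of gluconeogenic genes, rose by 0.78 as 1 of 20 gluconeogenesis and glyoxylate genes, against 1.12% of all genes, and passed with 1 array left out only without wt replicate 1. In glycolysis, 0 of 25 genes were called, with 3 at an unadjusted p under 0.05 by limma. With the block, 19 of 27 respiratory chain genes, 8 of 16 of ATP synthase and 7 of 20 of the tricarboxylic acid cycle rose, against 4.9% of all genes, as did 2 of the 20 gluconeogenesis genes, where 2 others fell. Of the 7 called genes of respiration, ATP synthase and the cycle, 1 passed without dot1 replicate 1, 0 without dot1 replicate 2, 0 without wt replicate 2 and 0 without any 1 of the swi4 and ard1 arrays, while 7 of 7 passed without wt replicate 1. The call without dot1 replicate 1 was MDH2. The uncalled NDE2, COX4, RIP1, CYC1, MDH1 and CIT1 passed with the replicate block (limma adjusted p = 0.0106 to 0.0317).

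In the comparison with the other deletions, which does not use the wt arrays for its estimate, 13 of the 27 respiratory chain genes lay above the mean of swi4 and ard1 (109 of 5449 genes did, 2%), with a median of 0.44 against 0.00 over all genes. Taken apart, QCR6 was 1.35 ± 0.15 above ard1 (adjusted p = 0.00447) and 0.12 ± 0.15 above swi4 (adjusted p = 0.847). NDI1 was 1.55 ± 0.12 above ard1 (adjusted p = 0.00238) and 0.28 ± 0.12 above swi4 (adjusted p = 0.42). INH1 was 1.53 ± 0.15 above ard1 (adjusted p = 0.00317) and 0.09 ± 0.15 above swi4 (adjusted p = 0.914). In each of these 3 genes the difference from ard1 passed the threshold and that from swi4 did not.

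Genes for making ribosomes, which process and assemble ribosomal RNA in the nucleolus, were lower in dot1, though few passed the test. All 55 genes of large subunit assembly and helicases had negative changes, with a median of −0.74 against −0.07 over all genes, and 3 fell: DHR2, DBP2 and the nucleolin-like NSR1 (−0.67). DHR2 had log2 intensities of 7.90 and 8.11 in dot1, against 8.92 and 9.52 in wt (adjusted p = 0.0392), and NSR1 had 12.82 and 12.87 in dot1, against 13.45 and 13.58 in wt (adjusted p = 0.0392). Those with the largest uncalled changes were REX4 (−1.19), an exonuclease-like protein, the helicase DRS1 (−1.17) and the assembly factor MAK21 (−1.09). All 39 genes of the small subunit processome and its small nucleolar RNPs had negative changes, with a median of −0.64 that was −0.37 without wt replicate 2 and −1.03 without wt replicate 1, and 0 were called by limma, with 28 at an unadjusted p under 0.05. Of that complex, SOF1 stood at −1.24 (adjusted p = 0.125) and NOP14 at −1.12. All 24 RNA polymerase I and III genes had negative changes, with a median of −0.60, and 0 were called by limma, with 16 at an unadjusted p under 0.05. Their median was −0.28 without wt replicate 2 and −0.90 without wt replicate 1, and 3 of the 24 changes were positive without wt replicate 2. The largest subunit of polymerase III, RPO31, stood at −0.95 and that of polymerase I, RPA190, at −0.77. With the replicate block, 39 of 55, 26 of 39 and 14 of 24 fell, against 9.65% of all genes. Of the 3 called genes of these 3 lists, 0 passed without dot1 replicate 1, 0 without dot1 replicate 2, 0 without wt replicate 2 and 0 without any 1 of the swi4 and ard1 arrays, while 3 of 3 passed without wt replicate 1. Named without a call, REX4, DRS1, MAK21, SOF1, NOP14, RPO31 and RPA190 passed once the replicate number was a block (limma adjusted p = 0.0114 to 0.0356).

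Array by array, the 55 genes of large subunit assembly and helicases had median log2 levels of 9.44 and 10.13 in dot1 and 9.68 and 9.90 in swi4. In ard1 they had 10.39 and 10.39, and in wt 10.29 and 10.85. Replicate 2 was higher than replicate 1 in dot1, swi4 and wt, dot1 was below wt within each replicate number, and the dot1 and wt medians did not overlap. The part of the replicate number in the change of these genes was not tested. The list median was −0.43 without wt replicate 2 and −1.13 without wt replicate 1, a move of over 1.5 times. Against the mean of swi4 and ard1 it was −0.36. Ribosomal proteins themselves were not called: 0 of 75 of the large subunit and 0 of 52 of the small subunit, with medians of 0.05 and 0.06 that were 0.09 and 0.11 without wt replicate 2 and 0.00 in both without wt replicate 1, and at an unadjusted p under 0.05 there were 2 in each. Of 31 translation factors 0 were called by limma, 8 had an unadjusted p under 0.05 and the median was −0.23 (−0.10 without wt replicate 2 and −0.41 without wt replicate 1). With the block, 5 of the 31 translation factors fell, against 9.65% of all genes, and 1 ribosomal protein of the large subunit rose.

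**Figure D3:**
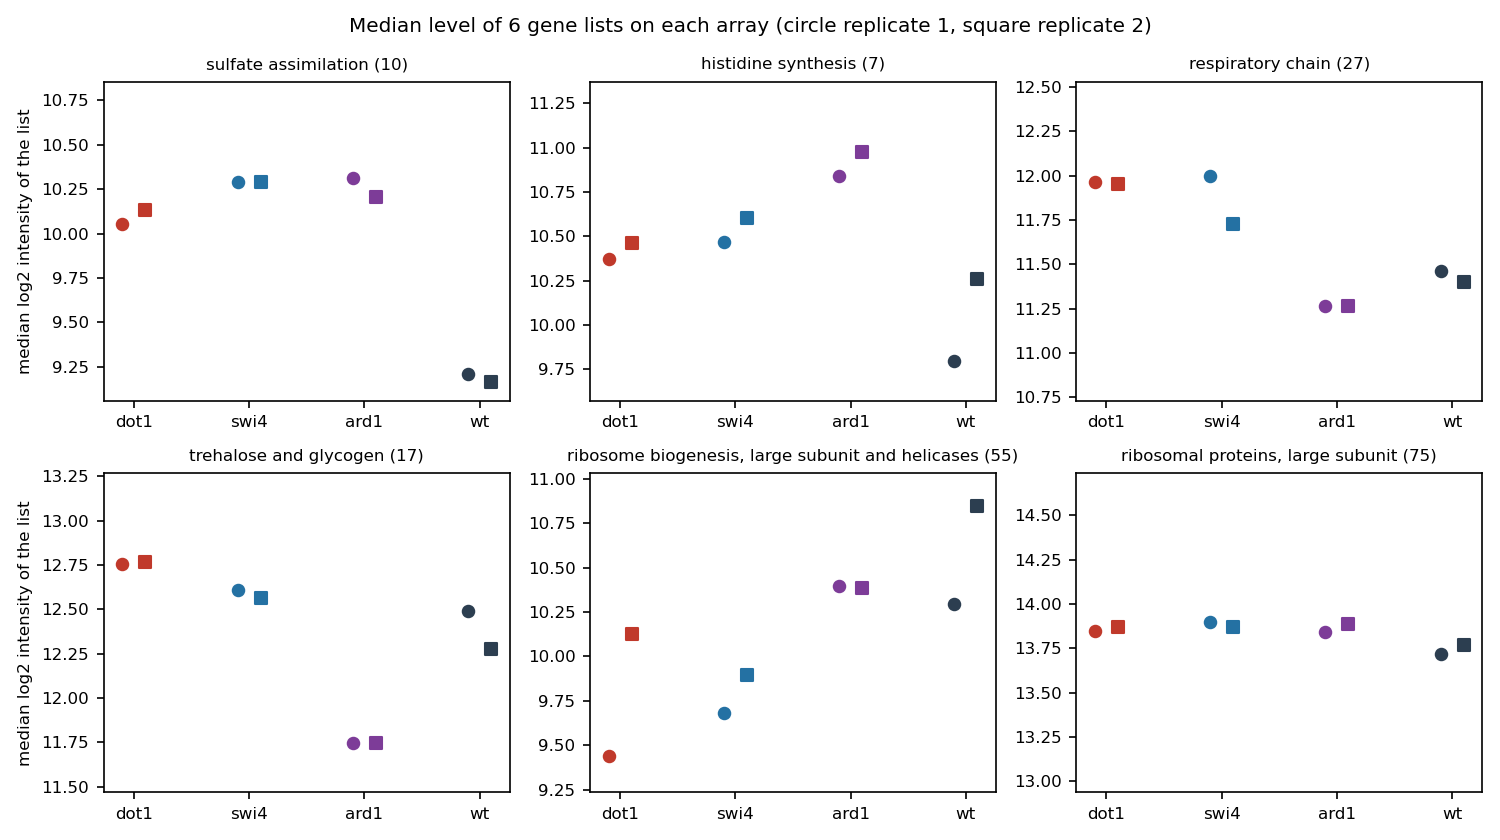
The median log2 intensity of the members of 6 gene lists (number of genes in parentheses) is drawn for each of the 8 arrays, with circles for replicate 1 and squares for replicate 2. The genes of large subunit assembly and helicases stand at 9.44 and 10.13 in dot1, against 10.29 and 10.85 in wt.

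**Figure D4:**
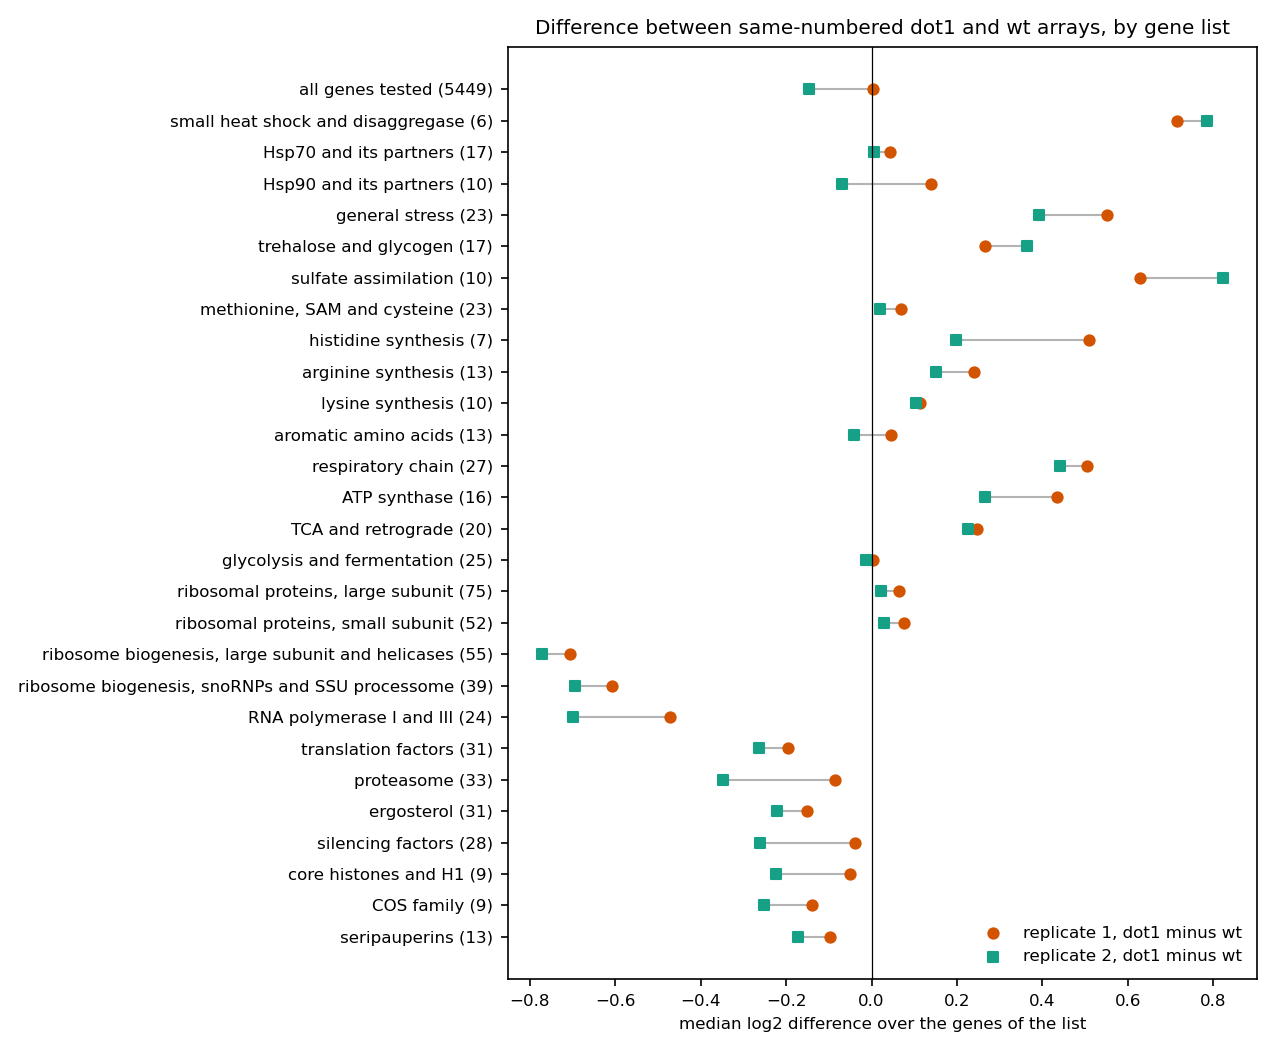
The median dot1 minus wt difference of gene lists (log2) is drawn within replicate 1 (circles) and within replicate 2 (squares), with the number of genes in parentheses. Sulfate assimilation and the respiratory chain lie above 0 in both, and the ribosome biogenesis lists below 0 in both.

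The silent mating cassettes, where Sir proteins keep copies of the mating-type genes off, showed no called change. HMRA1 had log2 intensities of 4.12 and 4.10 in dot1, against 4.13 and 4.05 in wt, a change of 0.02 ± 0.08 (adjusted p = 0.934). For HMRA2 the change was 0.04 ± 0.12 and for HMLALPHA1 −0.09 ± 0.12, with HMLALPHA1 at 11.80 and 11.69 in dot1, against 11.91 and 11.76 in wt. HMRA2 had log2 intensities of 10.13 and 10.27 in dot1, against 10.16 and 10.16 in wt. The dot1 and wt arrays overlapped in all 3 genes. The lowest wt level of any gene was 4.04, so HMRA1 lay at the floor of the arrays in both groups. Each cassette has the sequence of an allele of the active mating-type locus, so the arrays cannot tell which of them gave the HMLALPHA1 signal. The HMLALPHA1 level is therefore no measure of silencing at HML. For HMRA1, at the floor, no signal was seen from the cassette or the active locus. Genes of alpha cells had median log2 levels of 13.45 and 13.65 in dot1, against 6.68 and 6.70 for genes of a cells. In wt these levels were 13.48 and 13.70, against 6.48 and 6.59. No gene was called among 7 genes of a cells, 5 of alpha cells and 8 of haploids, whose list medians were 0.00, −0.04 and −0.02. These medians were −0.05, −0.01 and 0.12 without wt replicate 2, and 0.11, −0.10 and −0.16 without wt replicate 1. By limma at an unadjusted p under 0.05 there was 1 gene among these 20, and with the block 0 were called.

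Of 28 silencing factors 0 were called, 6 had an unadjusted p under 0.05 by limma and the median was −0.10. The deacetylase SIR2 had a change of −0.29 ± 0.12 (adjusted p = 0.206), and the structural subunits SIR3 and SIR4 had −0.04 ± 0.19 and 0.00 ± 0.22. The largest values were those of the H2B deubiquitinase UBP10 (−0.56), the origin recognition subunit ORC1 (−0.54), the telomere-binding RAP1 (−0.44) and the acetyltransferase subunit SAS2 (−0.42). With the block, UBP10, RAP1, SAS2 and SAS5 (−0.39) fell, 4 of 28 against 9.65% of all genes. Of 21 genes of histone H3 methylation and H2B ubiquitination, 1 fell, DOT1, against 1.34% of all genes, and 4 fell with the block, against 9.65%. The list median was −0.20, and it was −0.01 without wt replicate 2 and −0.36 without wt replicate 1. The H2B ubiquitin ligase BRE1 was at −0.18 and its conjugating enzyme RAD6 at −0.10. The H3 methyltransferases SET1 and SET2 were at −0.36 and −0.22. All 9 genes of core histones and histone H1 had negative changes of −0.05 to −0.30, and 0 were called, with 1 at an unadjusted p under 0.05. The median of the silencing factors was 0.08 without wt replicate 2 and −0.29 without wt replicate 1.

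Silencing near telomeres acts on the genes closest to the chromosome ends, so calls were counted by gene order from the nearer end, with order 1 to 5 the outermost. Of 98 outermost genes 2 rose (2.04%) and 7 fell (7.14%), against 42 (0.973%) and 57 (1.32%) of 4317 genes beyond order 40. With the block, 6 rose (6.12%) and 25 fell (25.5%) of the outermost, against 206 (4.77%) and 417 (9.66%) beyond order 40. The median change of the outermost genes was −0.15, against −0.07 for the genes beyond order 40. These medians were −0.27 and 0.01 without wt replicate 2. Without wt replicate 1 they were −0.09 and −0.15, so that the outermost genes were no longer the lower ones. In the next bin, order 6 to 10, 4 of 137 genes rose and 1 fell. Its median was 0.03 (0.01 without wt replicate 2 and 0.04 without wt replicate 1). Of the 98 outermost genes 41 had a probe set shared between near-identical copies, which makes their values uncertain, and their median wt level was 7.83, dimmer than the 9.43 of genes beyond order 40 on the log2 scale. Of the 9 called outermost genes, 1 passed without dot1 replicate 1, 0 without dot1 replicate 2, 0 without wt replicate 2 and 1 without any 1 of the swi4 and ard1 arrays, while 9 of 9 passed without wt replicate 1.

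The outermost genes that rose were SEO1 and COS12. COS12 had log2 intensities of 9.75 and 9.50 in dot1, against 8.54 and 7.96 in wt and rose by 1.38 ± 0.19 (adjusted p = 0.0245), with both dot1 arrays above both wt arrays. Those that fell were the neighbours YAR066W and YAR068W at the right end of chromosome I, the fluoride exporter FEX2 (−0.73), the arsenate reductase ARR2 (−0.73), and YEL076C (−0.60), YBL113C (−0.56) and YFL067W (−0.49). YAR068W had 9.13 and 8.93 in dot1, against 10.23 and 10.17 in wt, and YBL113C had 11.03 and 11.001 in dot1, against 11.49 and 11.66 in wt. The probe sets of YAR066W, YEL076C and YBL113C are shared between transcripts. FEX1, the near-identical copy of FEX2, fell by 0.76 on the log2 scale, and the sharing of signal between the copies cannot be checked here. Of 9 COS genes COS12 alone was called. COS10 was at −0.75, COS8 at −0.37 and COS7 at −0.34. Of 13 seripauperin genes, a subtelomeric family of cell wall mannoproteins, 0 were called by limma and 4 had an unadjusted p under 0.05, with PAU18 at −0.72 and PAU4 at −0.65. With the block, COS7, COS10 and 4 of the 13 seripauperin genes fell, against 9.65% of all genes. With the replicate block, PAU18 and PAU4 passed too (limma adjusted p = 0.0252 to 0.0411).

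**Figure D5:**
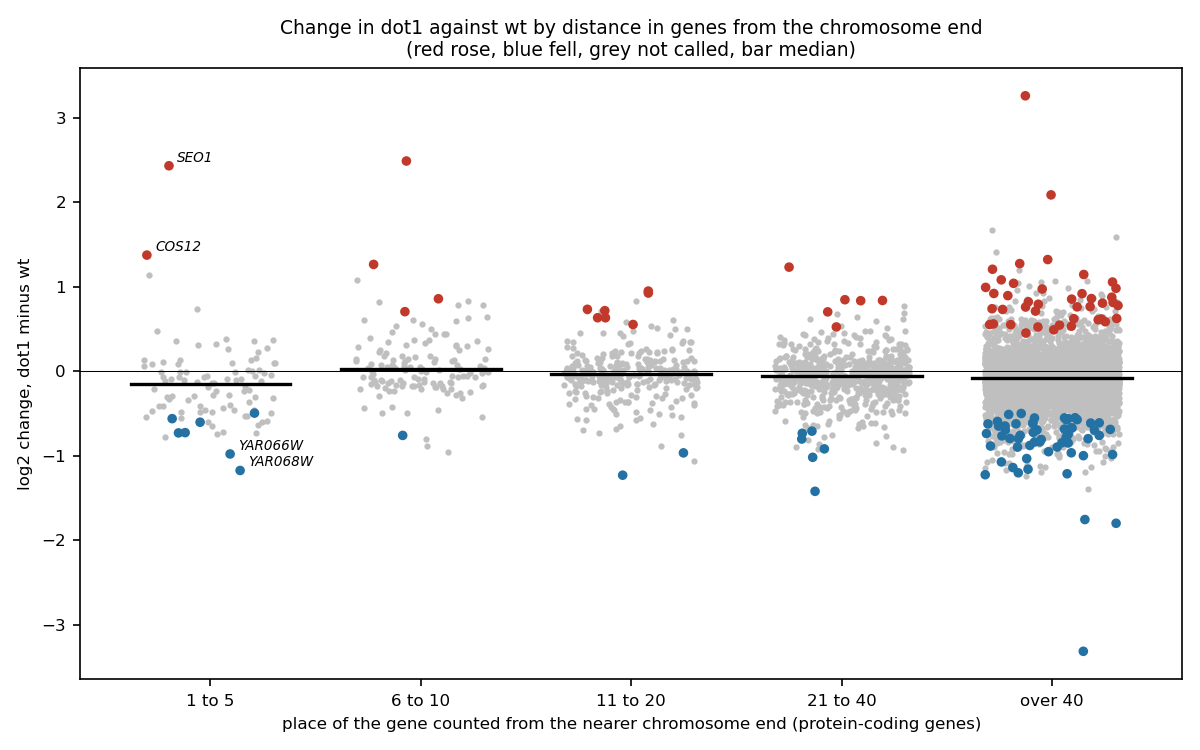
Each point is the log2 change of 1 gene in dot1 against wt, grouped by gene order from the nearer chromosome end, with risen genes red, fallen genes blue, uncalled genes grey and the median of each bin as a bar. The outermost bin holds 98 genes, of which 2 rose and 7 fell, and its median bar lies at −0.15.

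Against the other deletions the called outermost genes went different ways. COS8 had log2 intensities of 11.28 and 10.86 in dot1, 12.20 and 12.18 in swi4, 12.16 and 12.01 in ard1, and lay below both swi4 (−1.12 ± 0.16, adjusted p = 0.0359) and ard1 (−1.02 ± 0.16, adjusted p = 0.0128). YBL113C lay below swi4 (−1.04 ± 0.09, adjusted p = 0.00451) and ard1 (−0.37 ± 0.09, adjusted p = 0.0419). YFL067W did as well, by −0.69 ± 0.09 (adjusted p = 0.0215) and −0.37 ± 0.09 (adjusted p = 0.0354). Against the mean of swi4 and ard1, 1 outermost gene was higher and 7 were lower, of 98, and 52 of 5449 genes (0.954%) were lower in all. Of the 7 called falls, YBL113C and YFL067W were below both deletions. YAR066W and YAR068W were below ard1 by −0.80 ± 0.11 (adjusted p = 0.00823) and −0.97 ± 0.12 (adjusted p = 0.00579), and stood at 0.44 ± 0.11 and 0.26 ± 0.12 against swi4, where neither passed. FEX2 was at 0.39 ± 0.10 against swi4 and 0.31 ± 0.10 against ard1, ARR2 at −0.23 ± 0.13 and 0.47 ± 0.13, and YEL076C at 0.10 ± 0.11 and −0.10 ± 0.11, none of which passed. COS12, which rose in dot1, had group means of 9.63 in dot1, 10.15 in swi4, 10.38 in ard1 and 8.25 in wt, and dot1 lay below ard1 by −0.75 ± 0.19 (adjusted p = 0.0466) and stood at −0.53 ± 0.19 against swi4 (adjusted p = 0.33). COS8 was not called against wt (−0.37 ± 0.16, adjusted p = 0.239).

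HNM1, TPO4, NTE1 and CDS1 were among the other falls. In a list of phospholipid synthesis genes written after the values were seen, 7 of 32 fell, against 1.34% of all genes, with a median of −0.27. They were the choline transporter HNM1 (−0.88), CDP-diacylglycerol synthase CDS1 (−0.79), the lysophospholipase NTE1 (−0.76), the inositol transporter ITR1 (−0.75), phosphatidylserine decarboxylase PSD1 (−0.68), phosphatidylserine synthase CHO1 (−0.65) and ICE2 of the endoplasmic reticulum (−0.61). HNM1 had log2 intensities of 12.04 and 12.12 in dot1, against 12.92 and 12.99 in wt. In lists of the same origin, 4 of 16 polyamine genes fell, the exporters TPO1 (−0.73), TPO4 (−0.76) and TPO5 (−0.55) and spermine synthase SPE4 (−0.69), as did the drug exporters YOR1 and SNQ2 (−0.69) of 16 efflux genes. These counts are read against the same 1.34%. The phospholipid median against wt was −0.25 in swi4 and −0.29 in ard1, and in dot1 it was 0.03 against their mean. In the same order the efflux genes had −0.28, −0.25 and −0.02, and the polyamine genes −0.19, −0.14 and −0.10. Against the mean of swi4 and ard1, 0 genes of these lists were called. Such lists were chosen on these values and are no evidence of direction. None of these 13 falls passed without dot1 replicate 1, dot1 replicate 2, wt replicate 2 or any 1 of the swi4 and ard1 arrays, and all 13 passed without wt replicate 1. HMG1, an HMG-CoA reductase of the sterol pathway, fell by 0.51 on the log2 scale. It was 1 of 31 ergosterol genes to fall, against 1.34% of all genes, and 3 fell with the block, against 9.65%. ZPS1 was the 1 of 19 zinc genes called, against 1.34% of all genes that fell (4 fell with the block, against 9.65% of all genes). EEB1, which makes ethyl esters, fell by 0.61 beside ATF2. The cell wall list of 43 had 2 falls, NCA3 and the mannoprotein TIR1 (−0.76), and 1 rise, DSE1 (0.71). These stand against 1.34% of all genes that fell and 1.12% that rose. With the block the list had 3 falls and 1 rise, against 9.65% and 4.9% of all genes.

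In a list of daughter cell separation genes written after the values were seen, 3 of 13 rose, against 1.12% of all genes: NIS1 at the bud neck (0.77), DSE3 (0.74) and DSE1, and none passed without dot1 replicate 1, dot1 replicate 2 or wt replicate 2. DSE1 had log2 intensities of 10.19 and 10.33 in dot1, against 9.51 and 9.57 in wt. Against ard1, DSE1 was 0.94 ± 0.10 higher (adjusted p = 0.00397), and against swi4 0.43 ± 0.10 (adjusted p = 0.13). Of 26 targets of SBF and MBF 0 were called against wt, and 7 had an unadjusted p under 0.05, with ribonucleotide reductase RNR1 at −0.62. Of 14 genes of the mitotic CLB2 cluster 0 were called and the median was −0.36, with BUD4 at −0.65 and the kinase CDC5 at −0.53, and 7 had an unadjusted p under 0.05 by limma. The cluster's median was −0.18 without wt replicate 2 and −0.60 without wt replicate 1, and with the block 5 of its 14 genes fell, against 9.65% of all genes, as did 1 of the 26 targets. The uncalled BUD4 and CDC5 passed with the replicate block (limma adjusted p = 0.0241 to 0.0462). In the other deletions the CLB2 cluster's median against wt was −0.63 in swi4 and −0.70 in ard1. In dot1 it was 0.22 against the mean of swi4 and ard1, with 2 of the 14 genes called higher, against 2% of all genes.

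Genes that differed between dot1 and the other deletions were found with the mean of swi4 and ard1 in place of wt. In that comparison 109 genes were higher in dot1 (2%) and 52 lower (0.954%), 161 of 5449 (2.95%). ARD1, the gene deleted in ard1, led the higher genes (2.53 ± 0.15). Without any 1 of the dot1, swi4 or ard1 arrays 14 to 19 genes were called, and without either wt array, which enter only the spread, 309. The largest higher values after ARD1 were the cell wall genes TOS6 (2.38 ± 0.08) and SVS1 (1.87 ± 0.12), the wall sensor WSC4 (1.64 ± 0.10), and the acid phosphatase PHO5 (1.53 ± 0.11). CSI2 (1.48 ± 0.11), the cell cycle repressors YOX1 (1.43 ± 0.13) and YHP1 (1.30 ± 0.17), and the mating genes FIG1 (1.19 ± 0.09) and AFR1 (1.17 ± 0.17) completed the 10. In this comparison a change in swi4 or ard1 alone can make the difference, so each deletion was also taken apart. Of the 109 higher genes 16 were above both swi4 and ard1 by the limma test, 11 above swi4 and not ard1, 80 above ard1 and not swi4, and 2 passed against neither. Of the 10 largest, SVS1, WSC4, PHO5, YOX1 and FIG1 passed against both. TOS6 did not, with group means of 12.72 in dot1, 8.05 in swi4, 12.65 in ard1 and 12.70 in wt, so that swi4 was the low group. CSI2 and YHP1 passed against swi4 and not against ard1 (adjusted p = 0.289 and 0.506), and AFR1 against ard1 and not against swi4 (adjusted p = 0.643), as did ARD1 itself. None of the 10 was called against wt. PHO5 had log2 intensities of 12.49 and 12.59 in dot1, 10.48 and 10.72 in swi4, 11.34 and 11.51 in ard1 and 12.17 and 11.97 in wt, a difference of 1.94 ± 0.13 from swi4 (adjusted p = 0.00125), 1.11 ± 0.13 from ard1 (adjusted p = 0.005) and 0.47 ± 0.13 from wt (adjusted p = 0.101). Named without a call, PHO5 passed once the replicate number was a block (limma adjusted p = 0.0473).

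On the lower side, DOT1 (−3.38 ± 0.13) and NCA3 (−2.45 ± 0.14) led. NCA3 had log2 intensities of 9.26 and 9.08 in dot1, 12.06 and 12.49 in swi4, 10.97 and 10.94 in ard1 and 10.06 and 10.25 in wt. Both dot1 arrays were below the arrays of every other group, and dot1 differed from swi4 by −3.11 ± 0.16 (adjusted p = 0.000356), from ard1 by −1.78 ± 0.16 (adjusted p = 0.00298) and from wt by −0.98 ± 0.16 (adjusted p = 0.0329). The others of the largest 10 were YOR338W (−1.74 ± 0.26), the autophagy gene ATG41 (−1.30 ± 0.16), the ribosomal RNA helicase DBP8 (−1.14 ± 0.21), COS8 (−1.07 ± 0.14), ARG1, RTP1 (−0.95 ± 0.16), the Hsp40 APJ1 (−0.90 ± 0.14) and EMW1 (−0.90 ± 0.17). Of these 10, DOT1, NCA3, COS8 and ARG1 were below both swi4 and ard1, and the other 6 passed against ard1 and not against swi4. Of the 52 lower genes 8 passed against both, 3 against swi4 and not ard1, 38 against ard1 and not swi4, and 3 against neither.

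Large changes were not confined to called genes. Another 30 genes had changes of at least 2-fold, 12 higher and 18 lower, without passing the threshold, and in all 30 the dot1 and wt arrays did not overlap, as was the case for 42.6% of all genes. Among 33 proteasome genes 0 were called, 6 had an unadjusted p under 0.05 and the median was −0.21 (−0.07 without wt replicate 2 and −0.40 without wt replicate 1). No call was made in 53 mitochondrial ribosome genes, 18 of DNA damage signalling and repair, 20 of pheromone response, 19 of phosphate uptake and 19 hexose transporters. Their medians were −0.12, −0.18, 0.06, 0.14 and 0.14 in that order, and by limma 4, 3, 4, 4 and 4 of them had an unadjusted p under 0.05. The mitochondrial ribosome median was 0.08 without wt replicate 2 and −0.29 without wt replicate 1, with 37 of 53 changes positive without wt replicate 2, and it was 0.08 within replicate 1 and −0.31 within replicate 2. The DNA damage median was −0.08 without wt replicate 2 and −0.34 without wt replicate 1, the pheromone median 0.13 and 0.08, and the phosphate median 0.20 and 0.01. With the block, 1 DNA damage gene fell, 2 pheromone response genes rose and 1 fell, 2 phosphate genes rose and 1 fell, 1 hexose transporter rose and 1 fell, and 0 mitochondrial ribosome or proteasome genes were called, against 4.9% of all genes that rose and 9.65% that fell. Of 55 lists 25 had a called member. The 55 lists held 1150 genes, of which 42 were called. Of these 31 rose and 11 fell, against 1.12% and 1.34% of all genes. The lists were chosen with earlier results of these data known, so this total is a description only.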

How the data were processed

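Total RNA from hot acid phenol extraction was amplified to biotin-labelled cRNA and hybridised to 1-colour Affymetrix yeast arrays, per the labels' protocols. Per the submitters' processing notes, RMA gave the deposited intensity of each probe set, on a linear scale from 15.2 to 35540. The sources used here give no software version or build. RMA corrects background and equalises probe distributions before probe sets are summarised. The design had been written for log2 values, so log2 was taken first.

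Of 5814 probe sets, 98 controls or reporters and 218 without a gene name were left out. The other 5498 gave 5449 genes, 12 symbols were updated from the R64 gene table, and the brightest probe set stood for each of 47 genes with several. Probe sets shared between transcripts represent 117 genes. Gene order from chromosome ends was read from that table for 5446 genes.

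Changes were fitted with limma 3.58.1 (lmFit and eBayes, R 4.3.3) over 8 arrays and 4 group means, with 4 residual and 2.73 prior degrees of freedom. Tests were two-sided, with Benjamini-Hochberg adjustment over 5449 genes and a threshold of 0.05, and the script was tested on simulated data. With 2 arrays per group the smallest exact permutation p is 0.333, so it was not used for single genes. The fit with dot1 against the mean of swi4 and ard1 uses the same spread. Whether the spread between replicates is biological rests on the labels alone.

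The labels number the replicates without saying what a number marks. Deviations of same-numbered arrays from their group means correlated in all 6 pairs of groups, with r of 0.35 to 0.75 over genes and 0.75 for dot1 and wt, so the replicate number was taken as a pairing and fits with it as a block are given beside the main ones. Alternatives were the dot1 and wt arrays alone, median centring, quantile normalization, no dim genes, the mean of probe sets, an intensity trend, and each array left out. Leaving out swi4 and ard1 arrays, and wt arrays for the comparison with swi4 and ard1, was added after seeing the data.

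Named genes were DOT1 and its neighbours, the 20 largest rises and falls, called members of the lists, cassette, silencing and Dot1 pathway genes, the 10 largest differences either way from swi4 and ard1, and up to 4 uncalled members with the largest change per list. Called outermost genes and their relatives (FEX1, COS7, COS8, COS10), the called members of lists written later, and a few others marked in the text fall outside this rule and were chosen after their values were seen. The members and the 55 lists were chosen with earlier results of these data known, and 4 lists (phospholipids, polyamines, drug efflux, daughter cell separation) were compiled after the values were known. Lists are described by counts and medians, with no test.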

Additional observations from a re-analysis of the deposited data

How the results depend on the processing

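The 134 genes called against wt became 793 with the replicate block, 348 with an intensity trend in the prior, 233 after median centring, 215 after quantile normalization, 216 without the dimmest 25% of genes, 0 in a fit of the dot1 and wt arrays alone and 4 to 807 with 1 array left out. Rises numbered 267, 141, 119, 113, 94, 0 and 2 to 178 in these fits, and falls 526, 207, 114, 102, 122, 0 and 2 to 629. Called genes on the lists numbered 248, 140, 81, 75, 73, 0 and 3 to 226, against 42 in the fit reported. The 9 outermost genes called became 31 with the block, 0 in the fit of dot1 and wt alone, 6 after quantile normalization and 0 to 16 with 1 array left out. Against the mean of swi4 and ard1 there were 622 calls with the block, 259 after quantile normalization, and 14 to 309 with 1 array left out. DOT1 had a change of −3.31 in the fit of dot1 and wt alone, where it was not called (limma adjusted p = 0.0838), of −3.53 to −3.10 with 1 array left out, and was itself removed with the dimmest 25%.

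Of the 99 called changes against wt given for named genes other than DOT1, 99 kept their call with the block, 93 after median centring, 90 after quantile normalization, 11 and 3 when dot1 replicate 1 or 2 was left out, 99 and 10 when wt replicate 1 or 2 was, 10 to 11 without any 1 of the swi4 and ard1 arrays, and 0 in the fit of dot1 and wt alone. Of the 21 called differences from the mean of swi4 and ard1, 21 kept their call with the block and without either wt array, which this estimate does not use, 20 after median centring, 19 after quantile normalization and 10 to 11 without any 1 dot1, swi4 or ard1 array. None of these values changed sign in these fits. For the changes against wt, leaving out 1 array could not turn a sign, since the dot1 and wt arrays did not overlap in any called gene. Genes near 0 changed sign in places. SIR3 stood at 0.04 after median centring and 0.05 after quantile normalization, and over the fits with 1 array left out it lay at −0.32 to 0.24, SIR4 at −0.27 to 0.27, HMRA1 at −0.02 to 0.06, HMRA2 at −0.03 to 0.11, LRS4 at −0.29 to 0.01, RAD6 at −0.30 to 0.10, SET2 at −0.46 to 0.02 and BRE1 at −0.37 to 0.01. The cause of these moves was not tested. The precision is limited by the number of arrays, and signal over background cannot be read from values whose background was already removed.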

Other observations

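Some called genes not described above were chosen after their values were seen. ECM29 (−0.92) and BLM10 (−0.80), which bind the proteasome from outside its core, fell. Ribosome assembly genes not on the lists above fell as well, with RRP15 at −0.84, TMA23 at −0.88, the large ATPase REA1 at −0.62 and AFG2 at −0.57. HEM13, a heme synthesis enzyme that oxygen and heme repress, fell by 0.62 on the log2 scale, and AAC3, the ADP/ATP carrier of anaerobic growth, by 0.81. AAC3 had log2 intensities of 9.57 and 9.38 in dot1, against 10.42 and 10.14 in wt. The iron-sulfur genes YAH1 (−0.80) and NAR1 (−0.78) fell. The glutaredoxin GRX1 (0.53), the 1 call among 27 oxidative stress genes (2.46% of all genes were called), and the glutathione transferase ECM4 (0.85) rose. Of these genes 0 passed without wt replicate 2.

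Called genes lay next to each other in 7 places. In 4 of them both genes moved the same way: YAR066W with YAR068W, DBP2 with CYB5 (−0.70) and YHK8 (−0.90) with FSH1 (−0.59) fell, and ZTA1 with FMP23 rose. In the other 3 they moved apart: ZPS1 fell beside the mannoprotein HPF1 (0.74), PSD1 beside FMP41 (0.62), and CDC123 (−0.69) beside CPR6. SPL2, a phosphate-starvation regulator, was not called against wt (0.87 ± 0.17, adjusted p = 0.0555), but passed with the replicate block (adjusted p = 0.015) and lay 1.42 ± 0.17 above swi4 (limma adjusted p = 0.0213) and 0.80 ± 0.17 above ard1 (adjusted p = 0.0291).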
